A study of Drosophila melanogaster with 4 samples.

Results

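Aminoacyl-tRNA synthetases join each amino acid to its transfer RNA (tRNA) and so set how the genetic code is read. Most animal nuclear genomes carry separate genes for the enzymes of the cytoplasm and of the mitochondrion, and in flies the symbols of the mitochondrial ones end in -m. The genes described here are the protein-coding genes of the Ensembl annotation of the fly genome build dm6 whose symbol is a 3-letter amino acid code followed by RS, plus GluProRS, with or without -m. The rule found 33 of 13968 protein-coding genes, 18 without the suffix (called cytoplasmic) and 15 with it (called mitochondrial). It uses names only and no measured value. A gene called cytoplasmic may therefore also make the mitochondrial enzyme. The 2 subunit genes of the cytoplasmic phenylalanine enzyme, alpha-PheRS and beta-PheRS, have symbols that the rule does not match, and are given with the related genes at the end. The start codons of all 33 genes read ATG at their annotated positions in the reference sequence.

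The data are chromatin immunoprecipitation and sequencing (ChIP-seq) of Eip78C, a nuclear receptor related to the Rev-erb receptors of vertebrates. Its gene responds to the moulting hormone ecdysone. Whole Drosophila melanogaster of both sexes were taken at the white prepupa stage, when the larva has stopped moving and the puparium begins to form. All animals came from a transgenic line that makes Eip78C with GFP at its C-terminus, and the antibody was raised against GFP. The 4 biological replicates form 1 group, with no untagged animals or input among the samples analysed here (a control alignment, not analysed here, entered the peak calling), so background at these genes was not measured in the same way. The labels do not state the promoter or site of the transgene. Animals were whole, so no peak can be assigned to a tissue.

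Peaks are compared by the authors' signal score, whose scale the files do not give, and rank 1 is the highest score of a list. The joint list that passed the irreproducible discovery rate is called the optimal list. It holds 8282 peaks and equalled the 8282 strongest peaks called on the 4 replicates pooled. Each replicate's own list holds 30000 peaks, deposited (for replicates 2, 3 and 4) as peaks and background together, so its 8282 strongest were used to ask whether a gene had a summit in that replicate. The lists give no read counts, so the depth behind them is unknown. A gene has a summit when the summit of a peak lies within 1 kb of any of its annotated transcription start sites (TSSs).

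Cytoplasmic synthetase genes had a promoter summit more often than mitochondrial ones. In the optimal list 8 of 18 cytoplasmic genes (44.4%) and 2 of 15 mitochondrial genes (13.3%) had a summit, beside 22.0% of all protein-coding genes. Together 10 of the 33 genes (30.3%) had one. SerRS, GluProRS, ArgRS, ThrRS, AspRS, AlaRS, HisRS and GlyRS were the cytoplasmic genes, and LeuRS-m and ArgRS-m the mitochondrial ones. The other 23 genes had none. The gap between the kinds, 31.1 percentage points, was 14.4 points in the 4141 strongest optimal peaks and 8.89 points among optimal peaks met by a peak of all 4 replicates.

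The same order was seen in each replicate. Cytoplasmic genes with a summit made up 50%, 33.3%, 44.4% and 55.6% in replicates 1 to 4 (mean 45.8% ± 9.49, SD, n = 4). For mitochondrial genes the shares were 13.3%, 20%, 13.3% and 13.3% (mean 15% ± 3.33, SD, n = 4). The lowest cytoplasmic share, in replicate 2, was above the highest mitochondrial share, so the groups of values did not overlap. Within replicates the cytoplasmic share was higher by 36.7, 13.3, 31.1 and 42.2 percentage points (mean 30.8 ± 12.5, SD, n = 4; higher in 4 of 4; p = 0.13, two-sided exact sign-flip permutation test). That p is the smallest that 4 replicates allow, so no result of this test could pass 0.05 here. Among all protein-coding genes 25.2%, 21.1%, 24.5% and 26.9% had a summit in replicates 1 to 4. The 33 genes together exceeded these shares by 8.13, 6.18, 5.80 and 9.46 percentage points (mean 7.39 ± 1.71, SD, n = 4; p = 0.13, the smallest possible, two-sided exact sign-flip permutation test). With the whole lists of 30000 peaks the mean excess turned into a deficit of -3.92 points (p = 0.25, two-sided exact sign-flip permutation test). Replicate 1 kept an excess there (51.5%, beside 48.9% of all protein-coding genes). In replicates 2 to 4 the shares were 33.3%, 42.4% and 42.4%, beside 40.3%, 47.4% and 48.8%.

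**Figure D1:**
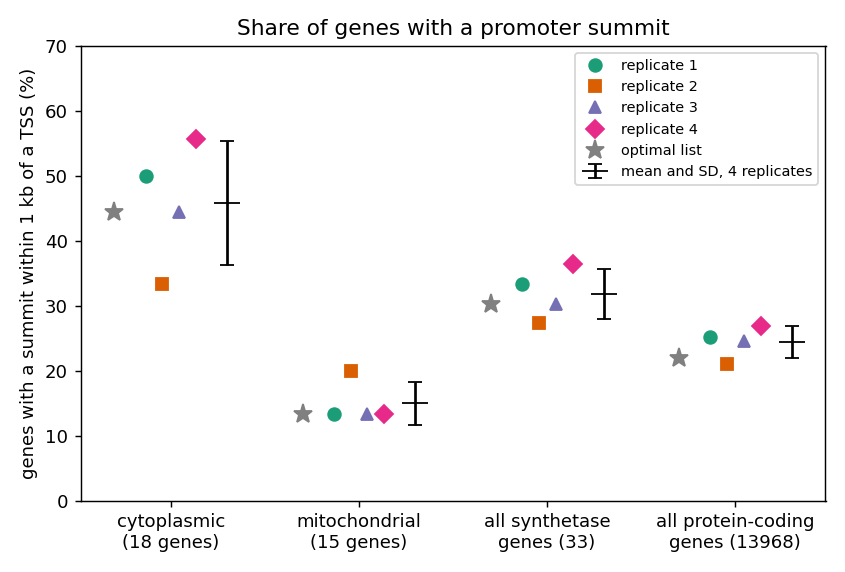
Share of genes with a summit within 1 kb of a TSS, in percent, for the 18 cytoplasmic, 15 mitochondrial and all 33 synthetase genes and for all 13968 protein-coding genes. Symbols are the 4 replicates, bars the mean and SD over them and stars the optimal list; every cytoplasmic value, from 33.3% to 55.6%, lies above every mitochondrial value, from 13.3% to 20%.

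Genes differed in how often the replicates repeated the summit. A summit in all 4 replicates was found for 7 of the 33 genes (21.2%), beside 15.2% of all protein-coding genes, and in 3 or 4 replicates for 10 (30.3%), beside 20.8%. The 7 were SerRS, GluProRS, ArgRS, AspRS, IleRS, LeuRS-m and ArgRS-m. IleRS is not among the genes of the optimal list and is described further on. ThrRS, AlaRS and HisRS had a summit in 3 replicates and GlyRS in 2. AsnRS and ValRS had a summit in 1 replicate each, and so did ProRS-m. The remaining 19 genes, 7 cytoplasmic and 12 mitochondrial, had none in any replicate.

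SerRS, which charges serine tRNAs, had the strongest peak among the cytoplasmic genes. The gene (FBgn0031497) spans 3035493 to 3037403 of arm 2L on the minus strand. Its peak ranked 463 of 8282 in the optimal list, with a signal score of 791. The summit, at 3037380, lay in the 5′ UTR, 23 bp downstream of a TSS. The ranks in replicates 1 to 4 were 798, 327, 785 and 348 (mean 564 ± 262, SD, n = 4). Replicates 2 and 4 ranked the peak higher than replicates 1 and 3, and all 4 placed it in the first 1000. The start of CG17260 on the other strand is 8 bp away from the 5′ end of SerRS, so the peak covers both promoters.

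LeuRS-m, the mitochondrial leucine enzyme gene, carried the strongest peak of all 33 genes, but far from its own start. The gene (FBgn0027085) spans 4825853 to 4829038 of 3L on the plus strand. The peak ranked 442, with a score of 805, and its summit at 4824955 was 898 bp upstream of LeuRS-m. That position is inside an intron of Dhc64C, the gene of the cytoplasmic dynein heavy chain, 732 bp from the Dhc64C start. Ranks in replicates 1 to 4 were 231, 772, 447 and 527 (mean 494 ± 223, SD, n = 4). Within 500 bp of a TSS LeuRS-m had no optimal summit, which left ArgRS-m as the only mitochondrial gene with one. In the whole lists of replicates 1, 2 and 4 a second, weaker peak had its summit 130, 128 and 124 bp upstream of LeuRS-m, at ranks 17601, 10417 and 7596.

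The following sequences are the 200 bp around the summit at the genes with the strongest peaks, on dm6 and 5′ to 3′ on the strand of the gene, so that the bases under these peaks can be read. LeuRS-m is chr3L:4824855-4825054, SerRS chr2L:3037280-3037479, GluProRS chr3R:23958527-23958726 and ArgRS chrX:15844212-15844411. IleRS, chr3L:22288412-22288611, is centred on the median of its 4 replicate summits. AlaRS, chr2L:8381707-8381906, was added after the motif search described further below. Capitals mark the 20 bases at the summit in every window but that of AlaRS, where they mark the motif TATCGATA and not the summit.
LeuRS-m: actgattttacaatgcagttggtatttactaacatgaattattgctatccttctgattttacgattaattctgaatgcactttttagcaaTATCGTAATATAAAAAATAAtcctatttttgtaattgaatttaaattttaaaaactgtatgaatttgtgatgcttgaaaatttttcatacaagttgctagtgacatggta
SerRS: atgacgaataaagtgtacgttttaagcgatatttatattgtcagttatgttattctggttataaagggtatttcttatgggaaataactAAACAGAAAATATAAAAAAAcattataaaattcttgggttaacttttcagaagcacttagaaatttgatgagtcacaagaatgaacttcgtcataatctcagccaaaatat
GluProRS: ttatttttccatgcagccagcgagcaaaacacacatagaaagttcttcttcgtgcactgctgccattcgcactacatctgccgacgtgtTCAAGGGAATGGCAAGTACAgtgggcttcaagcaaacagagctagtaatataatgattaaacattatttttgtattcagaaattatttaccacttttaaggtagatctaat
ArgRS: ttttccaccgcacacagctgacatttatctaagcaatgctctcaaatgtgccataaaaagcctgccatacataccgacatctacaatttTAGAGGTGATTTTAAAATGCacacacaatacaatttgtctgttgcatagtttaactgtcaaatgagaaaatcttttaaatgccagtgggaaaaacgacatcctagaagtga
IleRS: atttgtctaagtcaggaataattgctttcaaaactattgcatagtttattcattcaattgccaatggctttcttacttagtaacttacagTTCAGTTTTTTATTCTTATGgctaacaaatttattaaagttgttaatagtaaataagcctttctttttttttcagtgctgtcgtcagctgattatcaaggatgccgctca
AlaRS: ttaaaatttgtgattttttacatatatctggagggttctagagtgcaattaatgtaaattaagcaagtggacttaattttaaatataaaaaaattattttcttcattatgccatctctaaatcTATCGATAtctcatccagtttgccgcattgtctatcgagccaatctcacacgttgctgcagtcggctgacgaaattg

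These windows were rich in A and T, as optimal windows are in general. The windows of the 10 genes held between 25.0% (LeuRS-m) and 45.0% G and C (ArgRS-m), with a median of 34.8%. The median over all 8282 optimal windows was 34.5%. SerRS, at 27.5%, was also low, and GluProRS, at 38.0%, and ArgRS, at 36.5%, were above the median.

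GluProRS, ArgRS and ThrRS had peaks of similar rank upstream of their starts. GluProRS (FBgn0005674, 3R from 23952136 to 23958391, minus strand) encodes a single protein that charges both glutamate and proline tRNAs. Its peak ranked 1527, with a score of 402, and the summit lay 236 bp upstream of GluProRS but only 24 bp from the start of AP-1sigma, a clathrin adaptor subunit gene on the other strand. Ranks were 1576, 1498, 2159 and 1371 in replicates 1 to 4 (mean 1651 ± 349, SD, n = 4). In replicate 4 that peak only clips the optimal peak, with its summit 106 bp upstream of GluProRS. Where a replicate's peak had to cover 50% of the optimal peak's width, replicate 4 ranked 21396 and the mean was 6657 ± 9830 (SD, n = 4), with the other 3 ranks as before.

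ArgRS, the cytoplasmic arginine enzyme gene (FBgn0027093, X from 15841769 to 15844145, minus strand), had a peak of rank 1689 and score 377. The summit lay 167 bp upstream, midway between ArgRS and CG8578, whose start is 164 bp from the summit. Ranks in replicates 1 to 4 were 2852, 1410, 3047 and 1178 (mean 2122 ± 964, SD, n = 4). As at SerRS, replicates 2 and 4 gave the higher ranks. The mitochondrial arginine enzyme gene ArgRS-m (FBgn0037526, 3R from 7887045 to 7890150, plus strand) ranked 4002, with a score of 199 and a summit 134 bp upstream. Its ranks were 5423, 3629, 4571 and 4038 (mean 4415 ± 775, SD, n = 4), below those of ArgRS in every replicate. These peaks meet the optimal peak, but their summits differ. In replicates 2 and 4 they lay 126 and 117 bp upstream of ArgRS-m, and in replicates 1 and 3 266 and 285 bp upstream. CG17816 on the other strand starts 312 bp from ArgRS-m, so the summits of replicates 1 and 3 were nearer to CG17816.

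ThrRS, the threonine enzyme gene (FBgn0027081, 2L from 12103751 to 12107170, plus strand), ranked 1718, with a score of 373 and a summit 157 bp upstream. Its replicate ranks were 2132 in replicate 1, 1437 in replicate 3 and 1818 in replicate 4 (mean 1796 ± 348, SD, n = 3). The list of replicate 2 held no peak there at all, even among its 30000. The gene therefore missed the count of summits in all 4 replicates because of a single list.

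Other cytoplasmic peaks were weaker or less regular. AspRS (FBgn0002069, 2R from 12877004 to 12883168, plus strand), of the aspartate enzyme, had 2 optimal summits 203 bp apart, of ranks 2594 and 3163. Both lay upstream of a start inside the gene. The stronger was in an intron of AspRS and of Nmda1, 315 bp upstream of an internal AspRS start and 171 bp from a start of Nmda1. Its ranks in replicates 1 to 4 were 2140, 1751, 2801 and 4751 (mean 2861 ± 1333, SD, n = 4). Counting only the 5′ end of each gene removed AspRS.

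AlaRS, of the alanine enzyme (FBgn0027094, 2L from 8378262 to 8381764, minus strand), ranked 5219, with its summit 43 bp upstream. Ranks were 6339, 16883, 3999 and 6356 in replicates 1 to 4 (mean 8394 ± 5766, SD, n = 4), and the peak of replicate 2 was outside its 8282 strongest. HisRS, of the histidine enzyme (FBgn0027087, X from 18515428 to 18520445, plus strand), ranked 6150 with its summit 823 bp downstream, in the 5′ UTR. Ranks there were 18471, 5854, 6836 and 6951 (mean 9528 ± 5982, SD, n = 4), with replicate 1 far below the others. The annotation gives HisRS and Bx, a LIM-only gene, the same start, so the summit counts for both. GlyRS, of the glycine enzyme (FBgn0027088, 3L from 15095142 to 15097686, plus strand), was near the foot of the optimal list at rank 8073, with ranks of 13042, 9031, 17825 and 5167 (mean 11266 ± 5427, SD, n = 4). At GlyRS only replicate 4 placed this peak among its 8282 strongest, and replicate 1 reached that set by another summit, 910 bp upstream, of rank 8115.

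**Figure D2:**
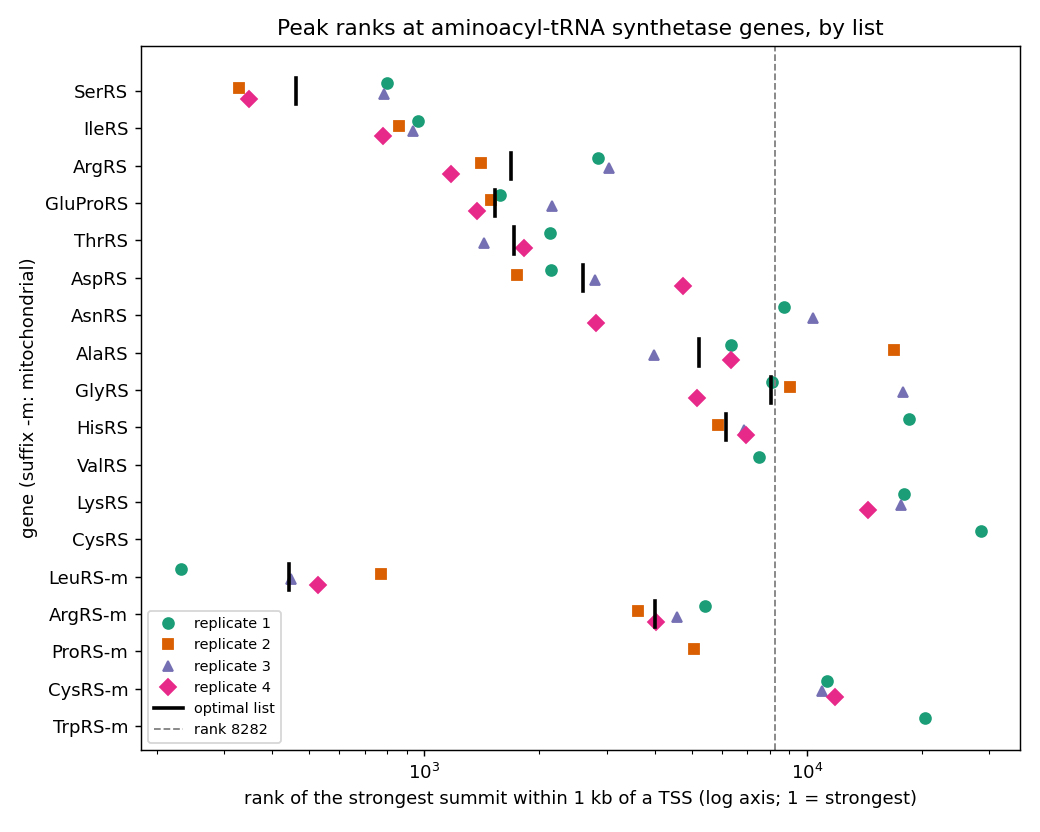
Rank of the strongest summit within 1 kb of a TSS (log axis, 1 is the strongest) for the 18 genes with such a summit in any of the 5 lists of 30000 peaks. Coloured symbols are the 4 replicates, black bars the optimal list and the dashed line rank 8282; SerRS, IleRS and LeuRS-m stay within the first 1000 in every replicate, and IleRS has no black bar.

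IleRS, the cytoplasmic isoleucine enzyme gene, had a strong peak in every replicate and none in the optimal list. The gene (FBgn0027086) spans 22288665 to 22292810 of 3L on the plus strand. In replicates 1 to 4 its peaks, with summits 170, 163, 132 and 143 bp upstream, had ranks of 962, 861, 936 and 782 (mean 885 ± 81.1, SD, n = 4), with scores of 127, 131, 144 and 186. The 4 summits lay within 38 bp, in the intergenic stretch of 470 bp between IleRS and Hem, a gene of the actin-regulating WAVE complex on the other strand. The spread between replicates was the smallest among the genes whose replicate ranks are given here. The pooled list, from which the optimal list was drawn, had no peak there, and its nearest summit was 11916 bp from the IleRS start. Such gaps were rare. Of 5244 sites at which the strongest peaks of all 4 replicates met, 74 (1.41%) met no peak of the pooled list, and at 4 of these every replicate ranked the site in its first 1000. IleRS was the only synthetase gene among the 74. The replicates' lists had gaps of the same kind. Of 5532 optimal peaks met by the 8282 strongest peaks of replicates 1, 3 and 4, the whole list of replicate 2 lacked 174 (3.15%). The ThrRS peak was among them. The other 3 replicates each lacked between 0.130% and 0.492% of the optimal peaks met by the rest.

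**Figure D3:**
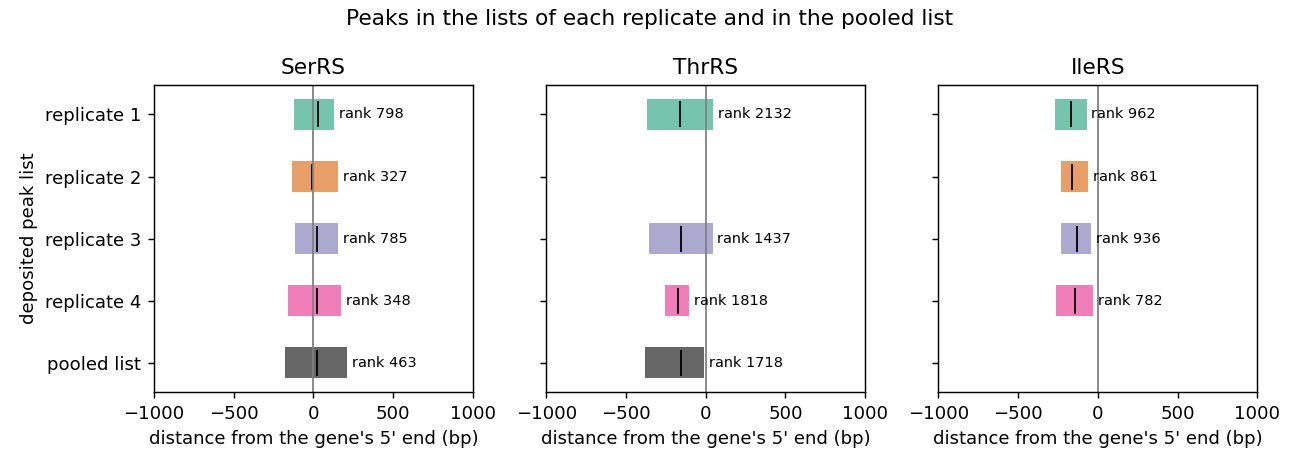
Peaks of each replicate's list and of the pooled list at SerRS, ThrRS and IleRS, by distance from the gene's 5′ end in bp (negative is upstream). Bars span the peaks, ticks are summits and numbers are ranks; all lists hold the SerRS peak, replicate 2 lacks the ThrRS peak and the pooled list lacks the IleRS peak.

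Most genes without an optimal summit were also empty in the longer lists. A summit within 1 kb in at least 1 of the 5 lists of 30000 peaks was found for 18 of the 33 genes (54.5%), 13 cytoplasmic and 5 mitochondrial, beside 65.5% of all protein-coding genes. AsnRS, of the asparagine enzyme, had a peak of rank 12255 in the pooled list. In the replicates its best ranks were 8721, 10381 and 2804 in replicates 1, 3 and 4, and the list of replicate 2 held none. CysRS-m, of the mitochondrial cysteine enzyme, ranked 11428 in the pooled list and 11310, 10941 and 11879 in replicates 1, 3 and 4. ProRS-m, of the mitochondrial proline enzyme, had a peak in replicate 2 only, at rank 5076, and ValRS, of the valine enzyme, in replicate 1 only, at rank 7483. LysRS had weak peaks of rank 17979, 17666 and 14439 in replicates 1, 3 and 4, and CysRS (28475) and TrpRS-m (20368) had peaks in replicate 1 alone. GlnRS, LeuRS, MetRS, TrpRS and TyrRS, all cytoplasmic, had none in any list. The mitochondrial genes with none were AlaRS-m, AsnRS-m, AspRS-m, GluRS-m, IleRS-m, MetRS-m, PheRS-m, SerRS-m, TyrRS-m and ValRS-m.

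The cytoplasmic and the mitochondrial gene of the same amino acid were also compared. Of 12 amino acids with 1 gene of each kind, arginine had an optimal summit at both. Alanine, aspartate and serine had it at the cytoplasmic gene alone, leucine at the mitochondrial gene alone, and the other 7 at neither. Isoleucine, 1 of those 7, had the IleRS summit of the replicates. In the optimal list 44.4% of all cytoplasmic and 13.3% of all mitochondrial synthetase genes had a summit, beside 22.0% of all protein-coding genes. With shares this low, few amino acids would have a summit at both genes. Whether the pairs depart from these shares was not tested. Of the 5 amino acids with a cytoplasmic gene only in this rule, glycine, histidine and threonine had a summit, and glutamine and lysine had none. In animals the LysRS and GlyRS genes are known to make both the cytoplasmic and the mitochondrial enzyme. The suffix does not show whether other genes of these 5 amino acids also do so.

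All 10 optimal summits also lay within 1 kb of the start of another protein-coding gene, beside 49.4% of the 3078 genes with a summit. The gene's own start was the nearest one for 6 of the 10 (60.0%; for HisRS tied with Bx), beside 75.8%. At GluProRS, ArgRS, AspRS and LeuRS-m a neighbour's start was nearer. By position 6 of the summits were intergenic (AlaRS, ArgRS, ArgRS-m, GluProRS, GlyRS and ThrRS), those of HisRS and SerRS lay in a 5′ UTR, and those of AspRS and LeuRS-m in an intron. Of the 10, 8 (80.0%) were upstream of the gene's nearest start, beside 78.0% of all genes with a summit, and the median distance was 162 bp, beside 220 bp. The median rank was 2156, beside 3114, and 7 of 10 (70%) were in the 4141 strongest peaks, beside 61.4%.

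**Figure D4:**
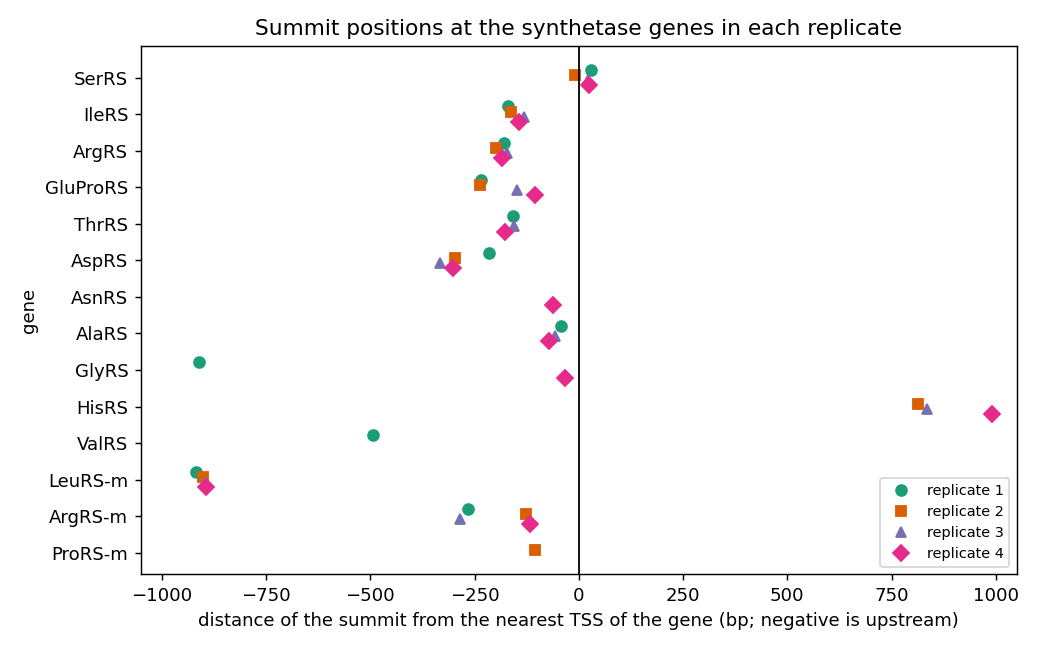
Distance of each gene's strongest summit from its nearest TSS, in bp (negative is upstream), for the 14 genes with a summit among the 8282 strongest peaks of a replicate. Symbols are replicates; most lie between 0 and 350 bp upstream, HisRS lies over 800 bp downstream in replicates 2, 3 and 4, and LeuRS-m about 900 bp upstream in all 4.

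Gene layout differed between the 2 kinds of synthetase gene. A start on the opposite strand within 1 kb upstream of the gene's 5′ end, here called a divergent partner, was found for 16 of 18 cytoplasmic genes (88.9%) and 7 of 15 mitochondrial genes (46.7%), beside 35.2% of all protein-coding genes. Among genes with a divergent partner a summit was found for 7 of 16 cytoplasmic (43.8%), 2 of 7 mitochondrial (28.6%) and 30.4% of all protein-coding genes. Without a partner the counts were 1 of 2 cytoplasmic genes (AlaRS), 0 of 8 mitochondrial genes and 17.5% of all. A summit counted for a gene with a partner need not lie between the 2 starts. That of AspRS was near a start inside the gene, and that of HisRS was 823 bp downstream. The part of gene layout in the difference between cytoplasmic and mitochondrial genes was not tested. More than 1 annotated TSS, which gives more positions for a summit, was found at 7 cytoplasmic and 2 mitochondrial genes. Of these, 5 of 7 and 0 of 2 had a summit, beside 40.6% of all genes with more than 1 TSS. Among genes with a single TSS a summit was found for 3 of 11 cytoplasmic and 2 of 13 mitochondrial genes, beside 15.3%. Median gene length was 3090 bp for cytoplasmic and 2727 bp for mitochondrial genes, beside 2164 bp.

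Motifs were counted on both strands in the 200 bp around each summit. The half-site AGGTCA bound by many nuclear receptors, and its longer form TAGGTCA, occurred in 0 of the 10 windows of synthetase genes and in 4.03% and 1.05% of all optimal windows. TATCGATA, the site of the promoter factor DREF, was in the AlaRS window and in 1.49% of all windows. TGATGNAA, an amino acid response element form, was in the HisRS window (3.08% of all), and GAGAGAG, the repeat bound by the factor Trl, in that of ArgRS-m (3.67%). GGTCACAC, which holds the core of a common fly promoter motif, and the E-box CACGTG were in none of the 10. The longer receptor form contains the shorter one, and GGTCACAC can overlap either.

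In the promoters themselves, from 250 bp before to 50 bp after the 5′ end, TATCGATA was in 5 of 33 genes (15.2%), beside 9.36% of all protein-coding promoters. These were AlaRS, ArgRS, IleRS, PheRS-m and TrpRS. GGTCACAC was in 4 (12.1%, beside 7.69%), namely AsnRS-m, AspRS-m, GlnRS and ProRS-m, none of them with an optimal summit. AGGTCA was in those of GlnRS, MetRS and TyrRS-m (9.09%, beside 5.88%), which also had no summit. A match of letters shows no binding, and a missing match says only that these letters were not in the window.

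Shares of related genes with an optimal summit lay between 16.7% and 42.9%, beside 22.0% of all protein-coding genes. Of 6 genes of synthetase partners, which hold the scaffold proteins AIMP1, AIMP2 and AIMP3, the phenylalanine subunits and the SerRS-m relative Slimp, 2 (33.3%) had an optimal summit. Slimp ranked 5998 (mean replicate rank 6803 ± 1730, SD, n = 4) and alpha-PheRS 7730 (8900 ± 1126, SD, n = 4), and neither had a summit in all 4 replicates. Of 24 genes of tRNA maturation and modification 4 (16.7%) had an optimal summit, all of them outside the 4141 strongest. Among them RNaseZ, which trims the 3′ ends of tRNAs, ranked 5269, La, which guards the ends of new tRNAs, 6041, and Nsun2, a tRNA methyltransferase, 6495. Archease, a cofactor of tRNA ligation, had no peak in the pooled list, as at IleRS, but a summit in all 4 replicates between 337 and 369 bp downstream of its start, at ranks of 1965, 5123, 1787 and 3059 in replicates 1 to 4. It was named after its values were seen. Of 7 genes of the response to uncharged tRNA and translation stress 3 (42.9%) had one, each in all 4 replicates. crc, the fly ATF4 that is known to drive synthetase genes under amino acid shortage, ranked 2353 (mean replicate rank 2564 ± 573, SD, n = 4). Thor, the 4E-BP gene, ranked 3886 (4884 ± 930, SD, n = 4) and Xrp1, of a stress transcription factor, 5320 (6126 ± 799, SD, n = 4), whereas Gcn2, the kinase that senses uncharged tRNA, had none.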

How the data were processed

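Peaks of ChIP-seq of Eip78C with GFP were taken from the authors' deposited lists on dm6. Per the notes deposited with the lists, every replicate was called against a control alignment, and the 4 alignments were also called together, as a pooled list. The optimal list came from the pooled list and those of replicates 2, 3 and 4. Replicate 1 entered it through the pooled alignments only. The peak caller, its version and the thresholds are not stated. Each deposited peak has a signal score and, per the narrowPeak format, −log10 of a q-value. That −log10 value was 4.26 throughout the optimal list and cannot order its peaks, which were therefore ranked by the score. Lists on dm3 were not used.

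Genes and TSSs came from Ensembl release 115 on 7 chromosome arms, and sequences from the RefSeq copy of the same build. No peak ended beyond an arm. Distances, overlaps (at least 1 bp) and counts were computed with Python 3.11.15 and numpy 2.4.6, and the assignment of summits to genes was tested on simulated data. A replicate's rank at a gene is that of its strongest peak meeting the gene's strongest optimal peak. In the plot of ranks, and for genes without an optimal summit, it is that of its strongest summit within 1 kb, which differs at GlyRS in replicate 1. Shares were compared over replicates with an exact sign-flip permutation test. Genes are not replicates, so other shares are descriptions. p-values measure the spread between 4 biological replicates of 1 line.

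The genes, the lists and the 7 motifs were chosen with earlier results of these data known. By the rule for named genes every synthetase gene is named, full values go to up to 6 genes of each kind and ranks to up to 4 of each of 3 lists of related genes (37 in all), always those with the strongest peaks; 1 related gene is not reported here. HisRS, GlyRS, IleRS and the AlaRS sequence were added after their values were seen. Of the listed related genes, Mettl1 and Adat were matched as CG4045 and Adat1, and RNaseZ was counted once with its older symbol. Alternatives were other distances, gene rules, thresholds and overlaps, and leaving out each replicate.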

Additional observations from a re-analysis of the deposited data

Results flagged for a closer look

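In 2 of the groups of 4 replicate values examined, a replicate stood apart by Dixon's ratio (the gap to the nearest value divided by the whole range) above its critical value. Chance alone marks about 1 in 20 such groups, and 14 groups were examined. The share of mitochondrial genes with a summit was 13.3% in 3 replicates and 20% in replicate 2, a ratio of 1.00. The whole gap is the single gene ProRS-m, which had a peak in that replicate only. With 3 equal values the ratio is 1.00 whatever the size of the gap, so the rate of 1 in 20 does not hold for this group. At HisRS the ratio was 0.913, with replicate 1 at rank 18471 and the others between 5854 and 6951.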

How the results depend on the processing

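The cytoplasmic share stayed above the mitochondrial share under every alternative run, by between 8.89 and 36.7 percentage points in the optimal list. The gap was smallest, 8.89 points, among optimal peaks met by 1 of the 8282 strongest peaks of every replicate. There 4 cytoplasmic and 6 genes in all had a summit, beside 14.2% of all protein-coding genes. In the 4141 strongest peaks the gap was 14.4 points (5 cytoplasmic genes, beside 13.5% of all genes). It was also 14.4 points among genes with a summit in all 4 replicates (5 cytoplasmic genes), an alternative added after the data were seen. With each summit given to the nearest TSS 6 genes had one, 5 cytoplasmic and 1 mitochondrial (26.1% of all genes), and within 500 bp 1 mitochondrial gene did (18.1%). Over replicates the gap ranged from 27.0 to 36.7 points when each replicate was left out in turn, and the excess of the 33 genes over all genes from 6.71 to 7.92. The mean of that excess reversed to -3.92 points with whole lists of 30000 peaks, though not in replicate 1. The cause was not tested. Of 50 alternatives for single genes' mean ranks 1 moved by more than the replicate SD. That was GluProRS, from 1651 to 6657 when 50% of the optimal peak's width had to be met. Leaving out a replicate cannot shift such a mean by as much as the SD. Only the alternatives with 50% of the width could therefore move, so the count of 50 does not measure stability. No paired analysis was possible because there is 1 group. Depth is unknown, and a gene without a peak may still be bound below what these lists hold.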

Other observations

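Cytoplasmic genes with an optimal summit differed in number between the structural classes of the enzymes, but those with a summit in all 4 replicates did not. Synthetases fall into class I and class II, which have unrelated catalytic folds. In the optimal list, where 22.0% of all protein-coding genes had a summit, it was found for 6 of 8 cytoplasmic class II genes (AlaRS, AspRS, GlyRS, HisRS, SerRS and ThrRS, but not AsnRS and LysRS) and 1 of 9 class I genes (ArgRS). GluProRS, whose protein joins an enzyme of each class, also had one. In replicates 1 to 4 the class II genes with a summit numbered 5, 3, 5 and 7 of 8 (mean share 62.5% ± 20.4, SD, n = 4), and the class I genes 3, 2, 2 and 2 of 9 (25% ± 5.56, SD, n = 4), IleRS being 1 of them each time. The mean share of all protein-coding genes was 24.4% ± 2.44 (SD, n = 4). A summit in all 4 replicates was found for 2 of 8 class II genes (AspRS and SerRS) and 2 of 9 class I genes (ArgRS and IleRS), beside 15.2% of all genes. Of the mitochondrial genes, 2 of 9 of class I (ArgRS-m and LeuRS-m) and 0 of 6 of class II had an optimal summit. The grouping by class was made after the values were seen, and the differences were not tested.

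The same cytoplasmic genes were grouped by whether their mammalian counterparts belong to the multisynthetase complex. Of the 8 that do, 3 had an optimal summit (GluProRS, ArgRS and AspRS), and of the 10 others 5, beside 22.0% of all protein-coding genes. In each replicate 4 of the 8 had a summit, and 5, 2, 4 and 6 of the 10 others in replicates 1 to 4, beside between 21.1% and 26.9% of all genes. A summit in all 4 replicates was found for 4 of the 8 (ArgRS, AspRS, GluProRS and IleRS) and 1 of the 10 (SerRS), beside 15.2%. This grouping too was made after the values were seen. The part of list gaps such as those at IleRS and ThrRS in these counts was not tested.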
